A study of Homo sapiens with 12 samples.

Results

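The human miRNAs numbered miR-6715 to miR-6895 were examined in KYSE150 cells, an established line of oesophageal squamous cell carcinoma, with and without galectin-9. The members were chosen by name and by detection: human probes from miR-6715 to miR-6895, of any letter and arm, that had a value on all 12 arrays in the authors' deposited series table. This rule found 222 members among the 354 probes of this number range on the array, and 891 of 2565 human miRNA probes had a value on all arrays. Of the members, 110 were 5p arms, 111 were 3p arms and 1, miR-6860, is named without an arm. They came from 151 hairpins.

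The galectin-9 group was KYSE150 cells exposed to 100 nM galectin-9 for 6 h, and the control group was KYSE150 cells without it. Both groups were grown in Ham's F12 medium with 2% fetal bovine serum. There were 6 arrays per group, each hybridised with Cy5-labelled total RNA of 1 sample of this single line. Galectin-9 is a lectin that binds beta-galactosides on cell-surface glycoproteins. Separate cultures are not stated for the samples of a group, so the p-values rest on a spread between arrays that may be technical only.

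A miRNA is cut from a hairpin transcript, whose 5' side gives the 5p arm and whose 3' side the 3p arm. One arm is usually loaded into an Argonaute protein, and bases 2 to 8 of the loaded strand, the seed, pair with target mRNAs. Many hairpins lie in introns of protein-coding genes. In a mirtron the hairpin is a short intron itself and splicing takes the place of Drosha, the nuclease that frees most miRNA hairpins, and such an intron ends in the AG of the splice acceptor. The numbers of miRNAs follow the order of registration, so high numbers belong to miRNAs that were mostly annotated from small-RNA sequencing, and for most of these members no function is established.

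The sequences of the members show a division between the arms. RefSeq (GRCh38.p14) held a mature sequence for 193 of the 222 members, 93 of them 5p and 99 of them 3p. In each sequence printed here 5' to 3', capitals mark the seed, bases 2 to 8. The 4 brightest 5p members with their G-rich sequences were:
miR-6822-5p: cAGGGAACcaguuggggcuu
miR-6729-5p: uGGGCGAGggcggcugagcggc
miR-6743-5p: aAGGGGCAgggacggguggccc
miR-6786-5p: gCGGUGGGgccggaggggcgu
The 3 brightest 3p members, of which the second and the third are G-rich for their arm, were:
miR-6765-3p: uCACCUGGcuggcccgcccag
miR-6840-3p: gCCCAGGAcuuugugcggggug
miR-6722-3p: uGCAGGGGucgggugggccagg
The pyrimidine-rich form with a terminal AG, which most 3p members have, is shown by 4 members that are described further below for their difference between the groups:
miR-6832-3p: aCCCUUUUucucuuucccag
miR-6780a-3p: cUCCUCUGuuuucuuuccuag
miR-6778-3p: uGCCUCCCugacauuccacag
miR-6741-3p: uCGGCUCUcucccucacccuag

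miR-6822-5p lies at chr3:39138211-39138230 (plus strand), within the span of TTC21A, which encodes a tetratricopeptide repeat protein. miR-6729-5p lies at chr1:12029163-12029184 (plus strand) within MIIP. miR-6743-5p lies at chr11:209341-209362 (plus strand) within the span of RIC8A, a chaperone of G protein alpha subunits. The strand of RIC8A is not in the tables used here. miR-6786-5p lies at chr17:81693809-81693829 (plus strand) within HGS, a subunit of the ESCRT machinery of endosomes. miR-6765-3p lies at chr14:105150778-105150798 (minus strand) within JAG2, which encodes a Notch ligand. miR-6840-3p lies at chr7:100356696-100356717 (plus strand) in a non-coding readthrough locus. miR-6722-3p lies at chr9:136746903-136746924 (minus strand) within the lipocalin gene LCN6.

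Guanine made up 50.8% ± 8.53 of the bases of the 5p members (SD over 93 sequences) and cytosine 14.9%. In the 3p members the composition was the mirror image, with cytosine at 45.3% ± 8.21 (SD over 99 sequences) and guanine at 15.2%. Among the other probes on all arrays, guanine averaged 34.5% in 211 5p arms and cytosine 30.8% in 188 3p arms. These averages pool early and late numbers, which were not set apart for base composition. Some hairpins outside the range had the same pattern, though their number was not counted. Guanine in 5p and cytosine in 3p were 66.7% and 50% at miR-7110, and 55% and 57.1% at miR-877. The pattern was thus not particular to the number range. A run of GGGG was present in 53 of the 93 5p members (57.0%) and in 19.4% of the other 5p arms on all arrays, and a run of CCCC in 37.4% of the 3p members and 16.0% of the other 3p arms. These runs were searched on the mature strand only, with overlaps counted once per sequence.

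Of the 99 sequenced 3p members, 76 ended in AG (76.8%) and 64 in CAG (64.6%). The other 3p arms on all arrays ended in AG in 28 of 188 cases (14.9%) and in CAG in 10.1%. The 3p arms of the same number range that were not on all arrays had nearly the same ending shares as the members, 71.4% for AG and 62.5% for CAG. Of the 5p arms of the range that were not on all arrays, 31.6% held GGGG. All of these are descriptions with no test, because detection chose the members, and the part of base composition in a spot's brightness was not tested.

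**Figure D1:**
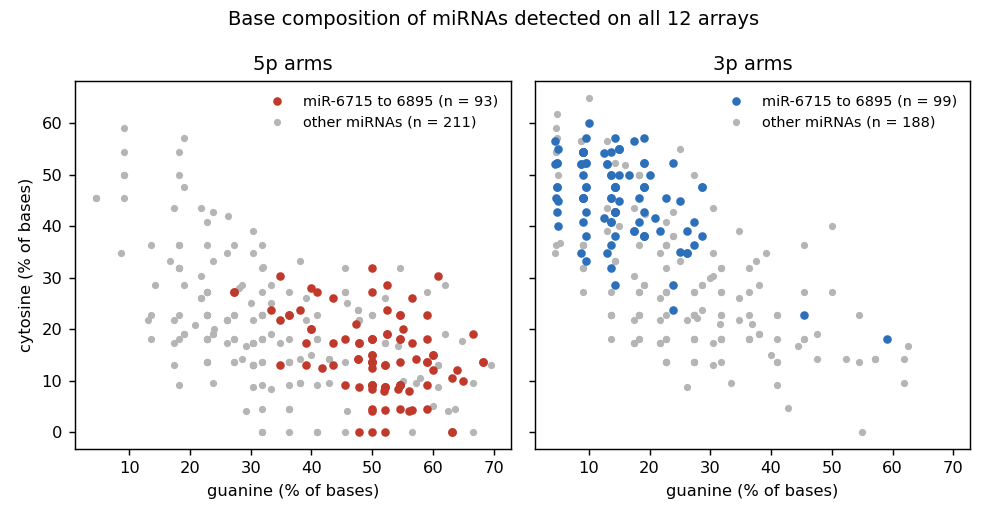
Each point is a mature miRNA with a value on all 12 arrays, placed by its guanine (x axis) and cytosine (y axis) share in percent of its bases, with 5p arms on the left and 3p arms on the right. The members, 93 5p and 99 3p sequences in colour, lie mainly at high guanine and at high cytosine in their own panels, and the grey points are the 211 and 188 other miRNAs.

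The hairpins carried the same mark. RefSeq gave a hairpin sequence for 133 loci of members, and 123 of these ended in AG (92.5%), against 117 of 1398 hairpins outside the number range (8.37%). Their median length was 67 bases, against 82 outside the range. At the other end, 15 of the 133 started with GU (11.3%), against 111 of the 1398 outside the range (7.94%). Whether these hairpins are mirtrons was not tested. Among the hairpins with the smallest p of a ratio change between the arms are one that ends with its 3p arm and one that ends just past it, shown with both mature arms in capitals:
miR-6787: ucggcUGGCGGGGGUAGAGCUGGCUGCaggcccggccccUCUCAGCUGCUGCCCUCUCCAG
miR-6877: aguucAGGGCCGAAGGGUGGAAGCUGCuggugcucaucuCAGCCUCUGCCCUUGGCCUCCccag
miR-6787 lies at chr17:82236668-82236728 (plus strand) within SLC16A3, which encodes the lactate transporter MCT4, and miR-6877 at chr9:133051996-133052059 (plus strand) within GTF3C5, a subunit of the RNA polymerase III factor TFIIIC.

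Coordinates were found for 142 loci. Of these, 115 lay within the span of a protein-coding gene on the same strand, and 21 lay only within a coding span whose strand is not in the tables. A single locus, MIR6715B, lay only within a coding span on the opposite strand, and 5 lay in no coding span. Exon positions were not used here, so whether a hairpin lies in an intron was not examined. Chromosome 19 held 21 loci, chromosome 1 held 20 and chromosome 17 held 17. PPP6R1, a regulatory subunit of protein phosphatase 6, contained 3 of the loci (MIR6802, MIR6803 and MIR6804). ATG2A, GTF2F1 and KDM5C contained 2 each.

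The number range was well represented among the detected probes. On all 12 arrays, 62.71% of the probes in the number range were detected, 62.5% of the 5p and 63.79% of the 3p probes. The share was 30.26% for the other human probes, 34.55% for 5p and 29.59% for 3p. Detection chose the members, so these shares are a description. Of the range probes, 110 were on 6 to 11 arrays, including 59 on 11, while 21 were on 1 to 5 and 1 on 0. The 59 probes on 11 arrays lacked galectin-9 replicate 5 in 1 case, control 6 in 52 and control 5 in 6.

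Galectin-9 replicate 1 detected 2045 human probes, the most of any array, and control 6 detected 934, the fewest. Within the number range, galectin-9 replicates 1 to 6 detected 340, 334, 317, 325, 335 and 340 probes, and controls 1 to 6 detected 323, 343, 339, 310, 295 and 231. Membership therefore rested largely on control 6. The 3 dimmest members, miR-6744-3p, miR-6795-3p and miR-6734-5p, had a mean log2 intensity of 1.86, 1.92 and 1.95. The 3 brightest probes just outside the rule, miR-6729-3p, miR-6865-3p and miR-6837-5p, had 2.95, 2.92 and 2.84 and all lacked only control 6. The probes just outside were thus brighter than the members just inside. Control 6 had a floor of 2.44, so every member had to reach 2.44 on this control array, while its galectin-9 values could lie lower. The differences of dim members, galectin-9 minus control, carry this limit of the rule. As to the cell type, 8 of 9 epithelial marker miRNAs were on all arrays (miR-205-5p at 11.5, miR-200c-3p at 10.8). The exception, miR-944, was on 11 arrays at 2.39. Of 17 markers of other cell types, 2 were on all arrays, miR-126-3p at 5.42 and miR-214-3p at 4.12, and the muscle marker miR-1-3p was on 0. miR-142-3p, miR-150-5p and miR-199a-5p, also markers of other cell types, were on 11 arrays like miR-944, at 2.43, 2.23 and 2.42.

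The levels of the members were low for the array. A level here is the log2 of a quantile-normalised Cy5 intensity, in which undetected values are set to the lowest detected value of their array. Their median level over the 12 arrays was 3.28, with quartiles of 2.84 and 3.93, against 3.80 with quartiles of 2.99 and 5.73 for the 669 other probes on all arrays. The 5p members had a median of 3.68 and a highest level of 8.61, and the 3p members 3.11 and 8.52. The other probes had 3.98 for 5p and 3.47 for 3p, and reached 15.5 overall. Probes of different sequence differ in labelling and hybridisation, so levels of different probes describe spot brightness and not amounts of miRNA.

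**Figure D2:**
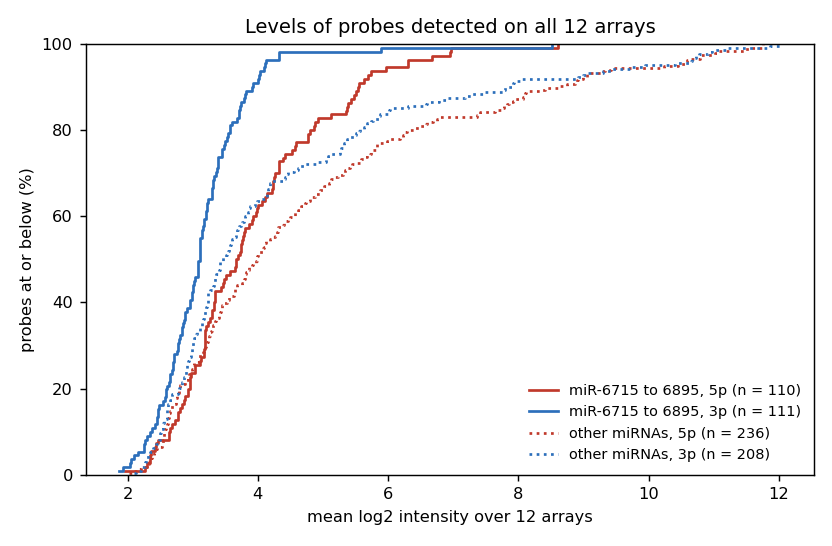
Cumulative share of probes (y axis, percent) at or below a mean log2 intensity (x axis) for the 110 5p and 111 3p members (solid lines) and the 236 5p and 208 3p other probes on all arrays (dotted lines). The 3p members rise first, with a median of 3.11, and the brightest of the other probes extend to the right of the members of both arms.

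Among the 5p members, miR-6822-5p was the brightest. Its log2 intensity had a lowest value of 8.31, a median of 8.78 and a highest value of 8.99 on galectin-9 arrays, and 7.96, 8.52 and 8.86 on control arrays. The ranges overlapped, and the means were 8.74 ± 0.26 with galectin-9 and 8.49 ± 0.34 in control (SD, n = 6 each). The log2 difference was 0.25 (95% interval -0.12 to 0.61), higher in 5 of 6 pairs, with a limma adjusted p of 0.545. Without control 5 the difference was 0.14.

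miR-6729-5p averaged 6.85 ± 0.24 with galectin-9 and 7.07 ± 0.10 in control (SD, n = 6 each), a log2 difference of -0.22 (limma adjusted p = 0.431). It was 6.37, 6.93 and 7.01 at the lowest, median and highest galectin-9 array and 6.95, 7.04 and 7.22 in control, and no pair was higher with galectin-9. Without galectin-9 replicate 5, the array at 6.37, the difference was -0.12. The other 6 of the 8 brightest 5p members were miR-6743-5p, miR-6786-5p, miR-6727-5p, miR-6803-5p, miR-6879-5p and miR-6780b-5p. Their galectin-9 means were 7.00, 6.62, 6.36, 6.19, 5.97 and 5.74, and their control means 6.90, 6.72, 6.26, 6.42, 5.95 and 5.72. The smallest adjusted p among these 6 was 0.340, for miR-6803-5p, whose log2 difference was -0.23 (95% interval -0.43 to -0.02). The hosts of miR-6727-5p and miR-6803-5p are INTS11, the RNA endonuclease of the Integrator complex, and PPP6R1. miR-6860, named without an arm, was also bright at 6.48 ± 0.11 with galectin-9 and 6.54 ± 0.20 in control (SD, n = 6 each).

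Among the 3p members, miR-6765-3p stood far above the others, at 8.50 ± 0.22 with galectin-9 and 8.54 ± 0.15 in control (SD, n = 6 each). Its galectin-9 arrays ran from 8.21 through a median of 8.51 to 8.80, against 8.39, 8.53 and 8.76 in control, and the log2 difference was -0.04 (95% interval -0.29 to 0.22, limma adjusted p = 0.914). miR-6840-3p, the next, had 5.81 ± 0.16 and 5.97 ± 0.13 (SD, n = 6 each, galectin-9 first), a log2 difference of -0.16. The remaining 6 of the 8 brightest 3p members, miR-6722-3p, miR-6754-3p, miR-6872-3p, miR-6743-3p, miR-6801-3p and miR-6804-3p, had mean levels over the 12 arrays between 4.03 and 4.33. miR-6743-3p had the widest spread of these, from 3.47 to 4.86 on galectin-9 arrays and from 3.00 to 4.87 on control arrays.

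For the contrast of galectin-9 with control, limma was fitted to the 1734 probes that at least 6 of the 12 arrays detected. At an adjusted p under 0.05, 0 of the 222 members were higher and 0 lower, against 0.173% and 0% of all probes tested. The smallest adjusted p of a member was 0.219. On every slide the galectin-9 arrays had the even and the control arrays the odd positions, so treatment and position parity cannot be told apart here.

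At an unadjusted p under 0.05, 4 members were higher (1.80%) and 14 lower (6.31%). The background over all probes tested was 4.21% higher and 8.65% lower, so neither share was above it. In a fit over only the 891 probes on all arrays, 4 members were higher (1.80%) and 16 lower (7.21%), against 8.75% and 8.64% of all 891 probes. In that fit 0 of the members had an adjusted p under 0.05, against 1.01% of the 891 probes.

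The members' differences were small. Fold values ran from 0.678 to 1.33, and the median log2 difference was -0.04, against -0.02 over the 891 probes on all arrays and -0.07 over all 1734 tested. The 5p members had a median of -0.04, with 46 of 110 above 0, and the 3p members -0.05, with 42 of 111 above 0. For the other 263 probes numbered 3600 or above on all arrays it was -0.05, with 96 above 0. The count above 0 depended on the scaling of the arrays: 88 of 222 members were above 0 with quantile normalisation, 151 with no normalisation between arrays and 207 when each array was scaled to one median. Those scalings moved the median of all probes tested to 0.06 and 0.23, and the members' median to 0.06 and 0.23.

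The 95% interval of the difference lay inside a 1.5-fold change in either direction for 183 members (82.4%) and inside a 2-fold change for 220 (99.1%). Among all 891 probes on all arrays these counts were 724 and 876. The 2 members with wider intervals were the arms of miR-6736, chosen for that after their values were seen. miR-6736-5p had 3.62 ± 0.93 with galectin-9 and 3.95 ± 1.04 in control, and miR-6736-3p 3.76 ± 0.69 and 4.11 ± 0.77 (SD, n = 6 each, galectin-9 first). Both arms were highest on the arrays of replicate number 1: the 5p arm reached 5.33 on galectin-9 replicate 1 and 5.50 on control 1, and the 3p arm 5.08 and 5.34. On slide 3 the 5p arm was 2.75 and 2.82 on galectin-9 arrays, and 2.89 and 3.28 on control arrays. Replicate number 2 differed between the groups: the 5p and 3p arms had 3.66 and 3.29 on galectin-9 replicate 2, and 4.96 and 4.74 on control 2. Both arms were thus high on galectin-9 replicate 1, control 1 and control 2.

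**Figure D3:**
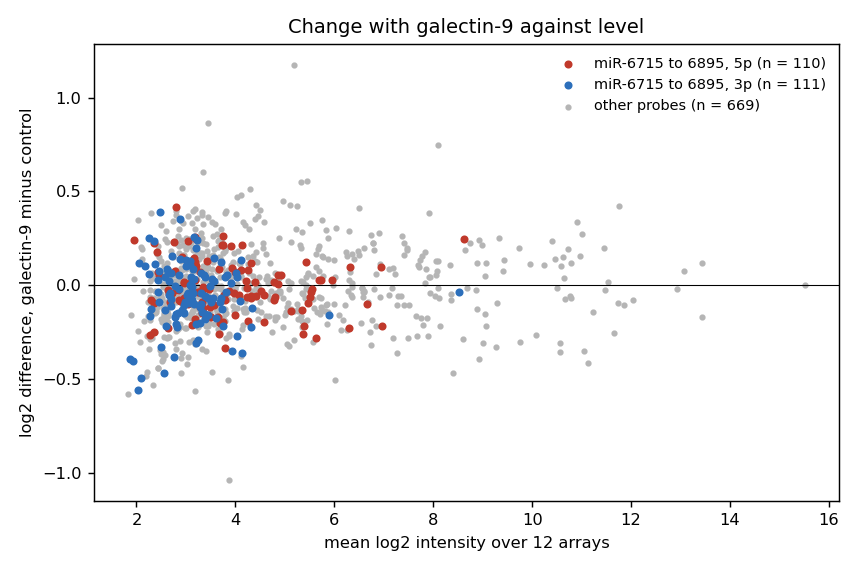
Log2 difference, galectin-9 minus control (y axis), against mean log2 intensity over the 12 arrays (x axis) for the 110 5p members (red), the 111 3p members (blue) and the 669 other probes on all arrays (grey). The members lie between -0.56 and 0.41, mostly at levels under 6, and the points farthest from 0 are grey.

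The member with the smallest p toward higher levels was miR-6831-5p, from a hairpin within the span of APBB3 at chr5:140563727-140563750 (minus strand). Its log2 intensity was 2.87, 3.00 and 3.23 at the lowest, median and highest galectin-9 array, and 2.30, 2.55 and 2.93 in control. The groups overlapped narrowly. The means were 3.01 ± 0.12 with galectin-9 and 2.60 ± 0.22 in control (SD, n = 6 each), a log2 difference of 0.41 (95% interval 0.17 to 0.66), higher in 6 of 6 pairs, with a limma adjusted p of 0.219.

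miR-6894-5p, within the histone demethylase gene KDM5C on chromosome X, had 3.87 ± 0.12 with galectin-9 and 3.61 ± 0.09 in control (SD, n = 6 each). The log2 difference was 0.26, higher in 6 of 6 pairs (limma adjusted p = 0.276). Its partner arm miR-6894-3p differed by 0.07 and miR-6895-5p, from the neighbouring hairpin of the same host, by -0.01. The other 6 members with the smallest p above 0 were miR-6739-3p, miR-6820-5p, miR-6791-3p, miR-6830-3p, miR-6845-5p and miR-6787-3p. Their log2 differences ran from 0.20 to 0.39 and their adjusted p from 0.293 to 0.483. miR-6820-5p, within the RNA polymerase subunit gene POLR2F, was the only one of these 6 that was higher in 6 of 6 pairs.

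Toward lower levels, miR-6832-3p had the smallest p. It lies within PRRC2A at chr6:31633839-31633858 (plus strand). Its values were 1.81, 2.43 and 2.53 at the lowest, median and highest galectin-9 array, and 2.53, 2.78 and 3.12 in control, so that the groups nearly separated. The means were 2.32 ± 0.28 with galectin-9 and 2.78 ± 0.23 in control (SD, n = 6 each), a log2 difference of -0.47 (95% interval -0.78 to -0.15), lower in 6 of 6 pairs, with a limma adjusted p of 0.259. To be a member, miR-6832-3p had to reach the floor of 2.44 on control 6, where it had 2.53. Its galectin-9 values could lie lower, and what this did to the gap between the groups was not tested.

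miR-6780a-3p, within EZH1, which encodes a histone H3 lysine methyltransferase, had the lowest difference of all members. It had 1.76 ± 0.41 with galectin-9 and 2.32 ± 0.21 in control (SD, n = 6 each), a log2 difference of -0.56 (limma adjusted p = 0.267). Within slides 1, 2 and 3 this difference was 0.05, -0.67 and -1.06, so slide 1 held no such gap. As a member, miR-6780a-3p had to reach the floor of 2.44 on control 6, where it had 2.60. The part of this rule in the difference was not tested. miR-6872-3p, within the semaphorin gene SEMA3B, differed by -0.36, and miR-6848-3p by -0.38.

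miR-6777-5p, within SREBF1, which encodes a transcription factor of lipid synthesis, had 5.49 ± 0.16 with galectin-9 and 5.77 ± 0.19 in control (SD, n = 6 each). It was lower in 6 of 6 pairs, with a log2 difference of -0.28 (limma adjusted p = 0.312). With the replicate number as a block and only the 891 probes on all arrays, a combination chosen after the data were seen, its adjusted p was 0.0493. It was then the sole member called, while 0.898% of the 891 probes were called lower in that fit. miR-6778-3p, within SHMT1, an enzyme of one-carbon metabolism, and miR-6787-5p differed by -0.29 and -0.26, each lower in 6 of 6 pairs. The sizes of these 3 differences depended on the scaling. When each array was scaled to one median, which moved the median of all probes tested to 0.23, they were -0.0046 for miR-6777-5p, -0.05 for miR-6778-3p and -0.02 for miR-6787-5p. With no normalisation they were -0.18, -0.22 and -0.19.

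miR-6741-3p was the only member whose groups did not overlap. Its values ran from 3.26 through a median of 3.29 to 3.35 on galectin-9 arrays, against 3.45, 3.46 and 3.56 in control. Groups without overlap were found for 1 of 222 members lower and 0 higher, while 1.23% of all 891 probes on all arrays were lower and 1.35% higher without overlap. The means were 3.30 ± 0.03 with galectin-9 and 3.48 ± 0.05 in control (SD, n = 6 each), a log2 difference of -0.18 (95% interval -0.33 to -0.03, limma adjusted p = 0.312), lower in 6 of 6 pairs. With a floor common to all arrays and with an unmoderated linear model its adjusted p was 0.00756 and 0.0109, at the same difference. The share of all probes called in those fits was not counted, so these calls have no background beside them. When each array was scaled to one median, the difference was 0.07.

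**Figure D4:**
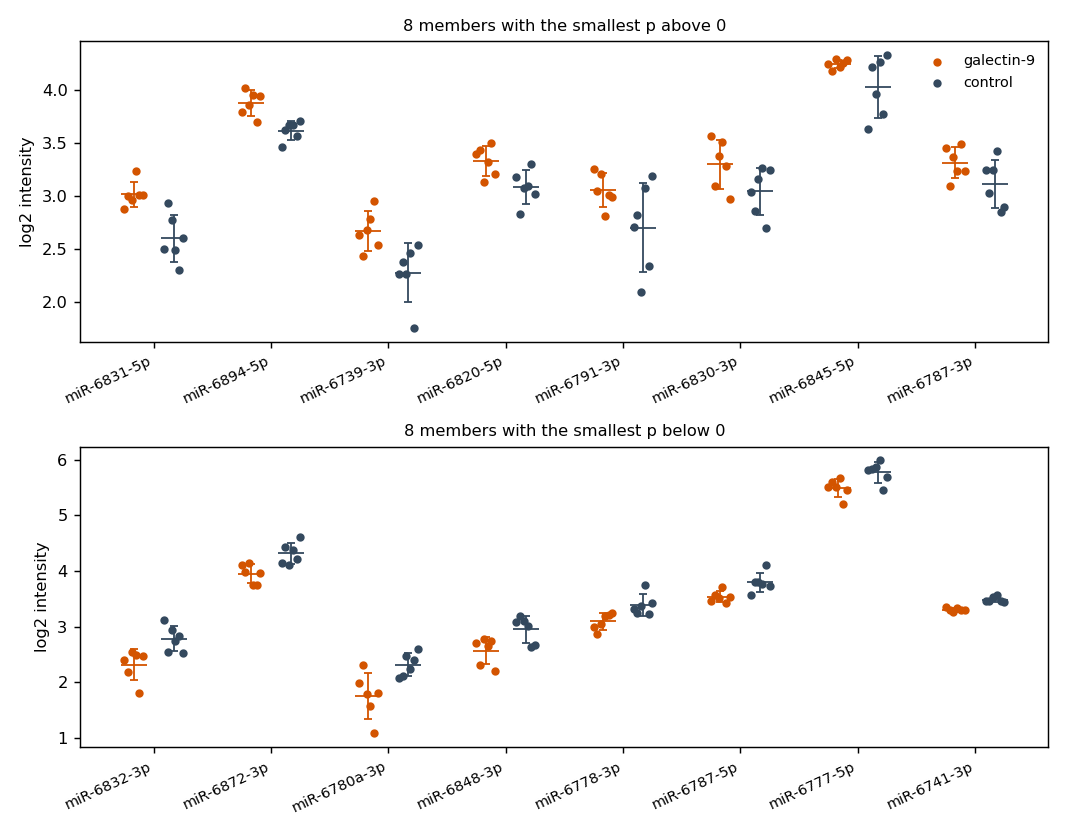
Log2 intensity (y axis) on each galectin-9 array (orange) and each control array (dark blue) for the 8 members with the smallest p above 0 (upper panel) and below 0 (lower panel), with mean and SD (n = 6 each). miR-6741-3p has the narrowest groups, without overlap, and every other pair of groups overlaps.

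The arms of a hairpin were compared with each other on the same arrays. Both arms were spotted for 171 hairpins of the range, and 71 had both arms among the members, 37 only the 5p arm, 39 only the 3p arm and 24 neither. The 5p probe was the brighter in 48 of the 71 hairpins, with median levels of 3.70 for 5p and 3.11 for 3p. Across these hairpins the levels of the 2 arms had a Pearson r of 0.126 (n = 71), a description over pairs that share a transcript and their arrays.

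The mean of the 5p members per array was 3.90 ± 0.11 with galectin-9 and 3.92 ± 0.11 in control, and that of the 3p members 3.12 ± 0.07 and 3.18 ± 0.09 (SD, n = 6 each, galectin-9 first). The 5p mean exceeded the 3p mean by 0.78 ± 0.05 with galectin-9 and by 0.74 ± 0.06 in control (SD, n = 6 each), and the ranges of the single arrays, 0.69 to 0.84 and 0.66 to 0.82, overlapped. In both groups replicate number 5 had the lowest 5p mean, 3.69 with galectin-9 and 3.71 in control. Within slides 1, 2 and 3 the median difference was 0.01, -0.02 and -0.03 for the 5p members, and -0.01, -0.03 and -0.10 for the 3p members. For the 669 other probes on all arrays it was 0.0034, 0 and -0.04, so slide 3 was lowest there too. Slide 3 holds control 6, whose floor of 2.44 every member had to reach. What this did to the differences was not tested.

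Single hairpins departed from this order in both directions. At miR-6765 in JAG2, the 3p probe was the brighter: log2 of the 5p to 3p intensity ratio was -3.44 ± 0.11 with galectin-9 and -3.34 ± 0.17 in control (SD, n = 6 each). At miR-6786 in HGS it was 3.37 ± 0.19 and 3.37 ± 0.32 (SD, n = 6 each, galectin-9 first), the highest of the 71. The ratio's change at these hairpins was -0.10 (95% interval -0.37 to 0.17) and 0.0047 (95% interval -0.32 to 0.33). In PPP6R1, miR-6803 had the brighter 5p arm, at 6.30 against 3.38 for its 3p arm over the 12 arrays, and miR-6804 the brighter 3p arm, at 4.03 against 2.35 for its 5p arm.

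The differences of the 2 arms had almost no correlation across the hairpins. With quantile normalisation, their log2 differences had the same sign in 42 of 71 hairpins, 15 with both above 0 and 27 with both below 0. The Pearson r of the differences was 0.0755 and Spearman's rho 0.0557 (n = 71), a description over hairpins measured on the same arrays. The median change of the 5p to 3p ratio was 0.02, against 0.03 over all 167 human hairpins tested, and it ran from -0.46 to 0.59. At an adjusted p under 0.05, 0 of the 71 hairpins passed, against 0.599% of the 167. At an unadjusted p under 0.05, 8 of the 71 (11.3%) passed, 4 in each direction, against 13.2% of the 167. The 95% interval lay inside 2-fold for 70 of the 71.

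miR-6848 had the smallest p. Its log2 ratio was 0.47, 1.28 and 2.03 at the lowest, median and highest galectin-9 array, against 0.33, 0.69 and 0.99 in control, so the groups overlapped. The means were 1.27 ± 0.53 with galectin-9 and 0.67 ± 0.27 in control (SD, n = 6 each), a change of 0.59 (95% interval 0.16 to 1.03), higher in 6 of 6 pairs (limma adjusted p = 0.282). It was the hairpin whose interval passed 2-fold. The ratio at miR-6787 in SLC16A3 was 0.22 ± 0.22 with galectin-9 and 0.68 ± 0.35 in control (SD, n = 6 each), a change of -0.46 (95% interval -0.81 to -0.11, limma adjusted p = 0.313), higher in 1 of 6 pairs.

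The next 3 hairpins had an adjusted p of 0.365 each. At miR-6778 in SHMT1 the ratio was 1.21 ± 0.11 with galectin-9 and 0.83 ± 0.29 in control, at miR-6877 in GTF3C5 1.95 ± 0.16 and 2.32 ± 0.30, and at miR-6885 in GTF2F1, which encodes a subunit of the initiation factor TFIIF, 2.10 ± 0.13 and 2.40 ± 0.14 (SD, n = 6 each, galectin-9 first). The ratio was higher with galectin-9 in 6 of 6 pairs at miR-6778 and in 0 of 6 at miR-6877 and miR-6885. At all 5 of these hairpins the arms' differences had opposite signs with quantile normalisation. They were chosen for the smallest p of a ratio change, so a gap between their arms follows from the choice. When each array was scaled to one median, the 5p differences of miR-6877 (0.15) and miR-6885 (0.01) were above 0 like those of their 3p arms.

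**Figure D5:**
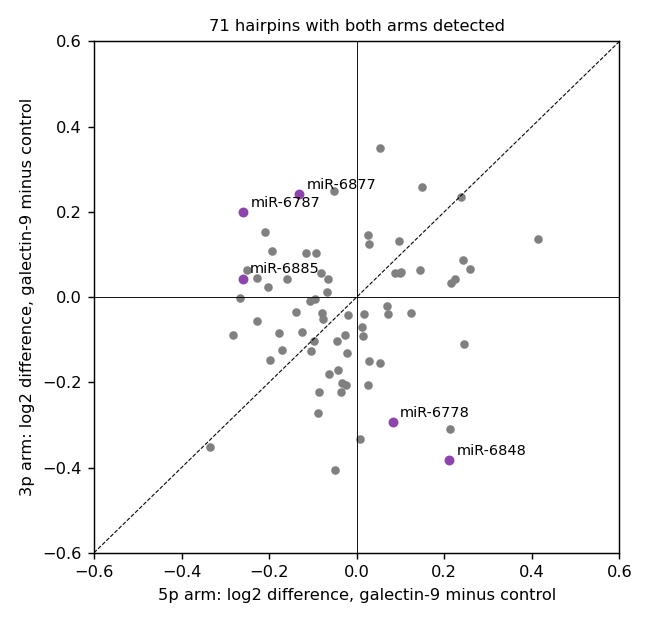
Log2 difference, galectin-9 minus control, of the 3p arm (y axis) against that of the 5p arm (x axis) for the 71 hairpins with both arms among the members. The points scatter around the origin without following the dashed line of equal change (Pearson r 0.0755). The 5 named hairpins lie away from that line in both directions, as their choice by the smallest p of a ratio change entails.

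The 193 sequenced members held 185 distinct seeds. Only 7 seeds were shared between members, by 15 members in all, and the largest group had 3, all 5p arms with the seed UGGGGUG:
miR-6737-5p: uUGGGGUGgucggcccuggag
miR-6812-5p: aUGGGGUGagauggggaggagcagc
miR-6819-5p: uUGGGGUGgagggccaaggagc
They lie within SLC39A1, a zinc transporter gene, PIGT, a subunit of the enzyme that attaches GPI anchors, and MYH9, a non-muscle myosin heavy chain gene. miR-6737-5p had 3.22 ± 0.16 with galectin-9 and 3.26 ± 0.07 in control, miR-6812-5p 3.97 ± 0.10 and 3.88 ± 0.32, and miR-6819-5p 3.74 ± 0.13 and 3.79 ± 0.15 (SD, n = 6 each, galectin-9 first). Their log2 differences were -0.04, 0.09 and -0.05, with adjusted p of 0.887, 0.818 and 0.847. When each array was scaled to one median they were 0.23, 0.35 and 0.19, and with no normalisation 0.06, 0.18 and 0.02. The signs of miR-6737-5p and miR-6819-5p thus depended on the scaling, while miR-6812-5p was above 0 each time.

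A further comparison set the members beside the rest of the array by seed. Of the members, 31 shared their seed with a probe on all arrays outside the range. The group with the most partners was miR-6838-5p, whose seed is that of the miR-15 and miR-16 family, known for targeting BCL2 and cell-cycle mRNAs:
miR-6838-5p: aAGCAGCAguggcaagacuccu
miR-16-5p: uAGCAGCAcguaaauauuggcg
miR-15a-5p: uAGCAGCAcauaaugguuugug
miR-6838-5p, within the DNA polymerase gene POLM, had 2.25 ± 0.22 with galectin-9 and 2.33 ± 0.50 in control (SD, n = 6 each). miR-16-5p had 10.75 ± 0.09 with galectin-9 and 10.82 ± 0.07 in control, and miR-15a-5p 7.91 ± 0.09 and 7.95 ± 0.05 (SD, n = 6 each, galectin-9 first). The log2 differences were -0.08 (95% interval -0.53 to 0.37), -0.07 (-0.24 to 0.10) and -0.04 (-0.21 to 0.13), with adjusted p of 0.894, 0.743 and 0.849. The other 3 partners on all arrays, miR-15b-5p, miR-195-5p and miR-424-5p, had log2 differences of -0.39 (-0.84 to 0.05), 0.34 (0.03 to 0.65) and 0.18 (-0.0037 to 0.36), with adjusted p of 0.422, 0.357 and 0.389. None of the 6 probes with this seed passed the test, and their differences lay on both sides of 0. miR-6787-5p shares the seed GGCGGGG with miR-663a and miR-1908-5p, and miR-6885-5p shares GGGGGGC with miR-328-5p.

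Level went with GC content among the members. Across 93 5p sequences, Pearson's r between GC content and level was 0.567, and across 99 3p sequences 0.352. With the base that marks each arm it was lower, 0.333 for guanine in 5p and 0.0177 for cytosine in 3p. The points share arrays and labelling, so these are descriptions. The 5p members with GGGG had a median level of 3.98 (n = 53), and those without it 3.29 (n = 40). Between GC content and the log2 difference the r was -0.203 for 5p and -0.0735 for 3p. The 3p members that end in AG had a median difference of -0.05 (29 of 76 above 0), and those with another end -0.09 (8 of 23 above 0).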

How the data were processed

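Each deposited array file gives raw, background-subtracted and globally normalised Cy5 intensity per spot, per the file headers, and the authors' deposited series table gives quantile-normalised intensity for the 891 probes on all arrays. Comparison of the columns showed that the authors took as background the 5% trimmed mean of the blank spots, and listed a value only where it lay over 2 SD above it. No scanner is named in the labels or headers.

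Raw intensity minus this background was quantile-normalised over all human probes, each undetected value was replaced by the lowest detected one of that array, and the result was put on the log2 scale. Probes detected on at least 6 of 12 arrays (1734) were tested two-sided with limma 3.58.1 in R 4.3.3 (lmFit and eBayes), with Benjamini-Hochberg adjustment over all of them and a threshold of 0.05. The log2 5p to 3p ratio of each hairpin with both arms on all arrays (167) was fitted the same way. Tables were made with Python 3.11.15 and pandas 2.3.3. The fits were tested on simulated data. The number of arrays limits the precision.

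Slide and position were read from a code in the array files' names: slide 1 holds replicates 1 and 2, slide 2 holds 3 and 4, and slide 3 holds 5 and 6. Deviations from the group means of arrays with equal replicate number correlated at 0.171 to 0.527 in all 6 pairs (median of other pairs -0.04). Equal numbers were therefore taken as pairs for the counts of pairs and for the replicate block. Neighbouring positions could give the same correlation. The limma fits had no block for replicate number unless one is named. P-values and intervals of the fits without a block are thus unpaired, also where a count of pairs stands beside them.

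The members, lists and tests were chosen with earlier results of these data known. Named were any called member, the 8 brightest 5p and 3p members, the 8 members with the smallest p in each direction, the arms of the 5 hairpins with the smallest p of a ratio change, the 3 dimmest members, the 3 brightest range probes lacking 1 array, and the largest shared-seed group. miR-6736, miR-6860, miR-6765-5p, miR-6786-3p, miR-6838-5p and its seed partners, and the other arms and neighbours given beside a named member were added after their values were seen. Sequences and positions are RefSeq's, GRCh38.p14. Alternatives covered normalisation, background, floor, filter, replicate and slide blocks, the moderation, and each array and slide left out.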

Additional observations from a re-analysis of the deposited data

Results flagged for a closer look

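For the 43 named members and the means of the 5p, 3p and 5p minus 3p levels per array, the highest and lowest arrays of each group of 6 were examined for a gap to the rest of the group, in 92 groups of arrays in all. In 5 of these the gap was wide by Dixon's 95% criterion, and chance gives about 1 in 20. miR-6729-5p was lowest on one galectin-9 array, at 6.37. miR-6739-3p was lowest on one control array, at 1.76, and miR-6877-5p on one control array, at 5.08. miR-6778-3p was highest on one control array, at 3.75. The mean of the 5p members was lowest on control 5, at 3.71.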

How the results depend on the processing

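Differences of uncalled members varied with single arrays and scaling, as given below and beside them. No member was called higher, and no hairpin's ratio was called, under any alternative run. The count of members called lower was 1 with a common floor and 1 with an unmoderated linear model (miR-6741-3p both times), and 1 with only probes on all 12 arrays and the replicate block together (miR-6777-5p). For the common floor and the unmoderated model the share of all probes called was not counted. The replicate block alone, the slide block and the authors' deposited table gave 0, and leaving out any array or slide gave 0. The median log2 difference of the 5p members was 0.0656 with no normalisation between arrays, 0.236 with global median scaling, -0.00654 with normexp background and -0.0100 without slide 3. With single arrays left out it ran from -0.0524 to 0.00948, above 0 only without galectin-9 replicate 5. The 3p median was 0.0365 with no normalisation and 0.207 with global scaling, and ran from -0.0662 to -0.0297 with single arrays left out. Under global scaling the differences turned sign for miR-6729-5p (0.0369), miR-6786-5p (0.161), miR-6803-5p (0.0725), miR-6765-3p (0.158), miR-6840-3p (0.0965), miR-6722-3p (0.157), miR-6754-3p (0.0454), miR-6801-3p (0.166), miR-6741-3p (0.0656), miR-6877-5p (0.152), miR-6885-5p (0.0135), miR-6737-5p (0.226) and miR-6819-5p (0.186). The median of all probes tested was then 0.23. With no normalisation, miR-6737-5p (0.0553) and miR-6819-5p (0.0151) turned sign. Without slide 1, miR-6780b-5p (-0.0185) and miR-6804-3p (-0.0446) did. Without slide 3, miR-6778-5p (-0.0201), miR-6885-3p (-0.0295), miR-6737-5p (0.0235) and miR-6812-5p (-0.0570) did, and with a common floor miR-6734-5p (-0.00644). Leaving out single arrays turned the sign of miR-6743-5p (range -0.0189 to 0.154), miR-6727-5p (-0.0615 to 0.201), miR-6879-5p (-0.0561 to 0.104), miR-6780b-5p (-0.0193 to 0.0642), miR-6765-3p (-0.0953 to 0.0218), miR-6743-3p (-0.0761 to 0.299), miR-6804-3p (-0.00265 to 0.0765), miR-6737-5p (-0.0861 to 0.00423) and miR-6812-5p (-0.00391 to 0.172). The cause was not tested in any of these. Dim signal limits the members: control 6 had a floor of 2.44, above the level of the dimmest members, and the parity of the array position cannot be told apart from the treatment.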
